A study of Homo sapiens with 6 samples.

Results

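UCHL1 was mapped by ChIP-seq in DU 145 cells, a prostate cancer line from a brain metastasis, after cross-linking with 1% formaldehyde alone and after dual cross-linking with 1 mM DSP and formaldehyde. The sites described here are those called with both methods. A dual peak and a formaldehyde peak on the same chromosome were paired when the midpoint of either lay within the other. This gave 190 pairs, from 190 of the 1531 dual peaks (12.4%) and 197 of the 3086 formaldehyde peaks (6.38%), out of 6813 peaks in the whole series. Each condition had 1 UCHL1 ChIP library and 1 input library, with the same mouse monoclonal antibody for both ChIPs. The remaining condition, dual cross-linking of HEK293T cells, an embryonic kidney line carrying SV40 T antigen, is used only to say which pairs were also called there. The labels give 1% formaldehyde for the dual samples too, whereas the study's methods describe a lower concentration. Formaldehyde chromatin was sonicated and dual cross-linked chromatin was digested with MNase to mononucleosomes, so an effect of the cross-linker and an effect of the fragmentation cannot be told apart. With 1 library a side there is no replicate error, and no difference was tested. The intervals given for shares cover counting over sites only.

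UCHL1 (ubiquitin C-terminal hydrolase L1) is a deubiquitinating enzyme that is abundant in neurons and present in many cancers. It has no known DNA-binding domain. Formaldehyde joins a protein to DNA it touches. DSP is a longer, amine-reactive reagent that joins proteins to each other, and it is added before formaldehyde to hold proteins that reach DNA through a partner. Telomeres consist of TTAGGG repeats covered by the shelterin proteins, of which TRF1 and TRF2 contact the repeat directly. Short arrays of the same hexamer also lie inside chromosomes and in the subtelomeric regions next to the ends.

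The hg19 sequence under each dual peak placed the pairs in classes. The telomeric repeat (at least 2 consecutive TTAGGG or CCCTAA) was present in 69 pairs. Of the others, 42 pairs held a polypurine run, defined as 30 or more bases that are all purines or all pyrimidines, with G (on the purine strand) making up 20% or more. The remaining sequence had neither repeat in 75 pairs, and was undetermined (more than 50% N in the hg19 sequence used) for 4 pairs on chromosome Y. In the whole lists the telomeric repeat was present in 10.6% of the readable dual peaks and 2.58% of the readable formaldehyde peaks, and the polypurine run in 9.52% and 2.68%. The dual peak at GPR35, on the plus strand of hg19, is shown as an example of a short interstitial array. Capitals mark the hexamers.

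GPR35, chr2:241553508-241553567: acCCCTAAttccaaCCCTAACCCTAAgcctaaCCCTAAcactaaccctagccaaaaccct

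With neither repeat, the dual peaks with the highest and the lowest fold ratio are shown on the same strand. The peak in SP100, with nearly equal fold enrichment in both lists, is shown beside them. Capitals mark the bases shared with the formaldehyde peak.

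20688 bases from TBX15 (highest dual ratio), chr1:119552867-119552990: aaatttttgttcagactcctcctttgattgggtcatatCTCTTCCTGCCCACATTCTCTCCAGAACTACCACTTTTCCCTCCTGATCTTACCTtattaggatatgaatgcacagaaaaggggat
48858 bases from SLC16A7 (lowest dual ratio), chr12:59940900-59940952: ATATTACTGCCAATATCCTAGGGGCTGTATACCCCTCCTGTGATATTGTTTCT
SP100, chr2:231325063-231325112: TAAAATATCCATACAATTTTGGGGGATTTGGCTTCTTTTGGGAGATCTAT

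Unscaled tags were higher in the dual peak than in its formaldehyde partner at most sites, and more so at the telomeric repeat. Tags are the reads under a peak. The dual peaks held a median of 17.5 tags (7 to 487) and the formaldehyde peaks a median of 9 (6 to 345). Dual tags were higher at 176 of the 190 pairs (92.6%), equal at 9 and lower at 5. The lowest count in the whole lists was 7 tags for dual and 6 for formaldehyde peaks. Sites with fewer tags in either list are therefore missing from the pairs. This leaves little room for low ratios where the formaldehyde count is small. The median tag ratio was 1.71 (log2 0.78, quartiles 0.36 and 1.22), and it was at least 2 at 79 pairs (41.6%). The number of reads per library is unknown, so whether depth had a part in this difference was not tested. After division by the sum of tags over all peaks of each list, the median log2 tag ratio was 0.14 and the dual value was higher at 109 of the 190 pairs (57.4%). With this division the medians were 0.63 at the telomeric repeat (higher at 63 of 69), -0.01 at polypurine runs (20 of 42) and -0.22 with neither repeat (24 of 75), so outside the telomeric repeat the direction depended on the scaling.

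The tag ratio differed between the classes. At the telomeric repeat the median was 26 tags with dual and 12 with formaldehyde cross-linking, a median ratio of 2.4, and the ratio was at least 2 at 53 of 69 pairs (76.8%, against 41.6% of all pairs). At polypurine runs the medians were 19 and 12 tags (ratio 1.54), with 10 of 42 pairs at a ratio of at least 2 (23.8%). With neither repeat they were 11 and 8 tags (ratio 1.33), with 14 of 75 (18.7%). The telomeric median log2 ratio was thus 0.85 above that of the pairs with neither repeat and 0.64 above that of the polypurine pairs, and these differences do not depend on a factor common to a library. The telomeric quartiles (1.00 and 1.69) lay above the upper quartiles of polypurine runs (0.93) and of neither repeat (0.76).

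**Figure D1:**
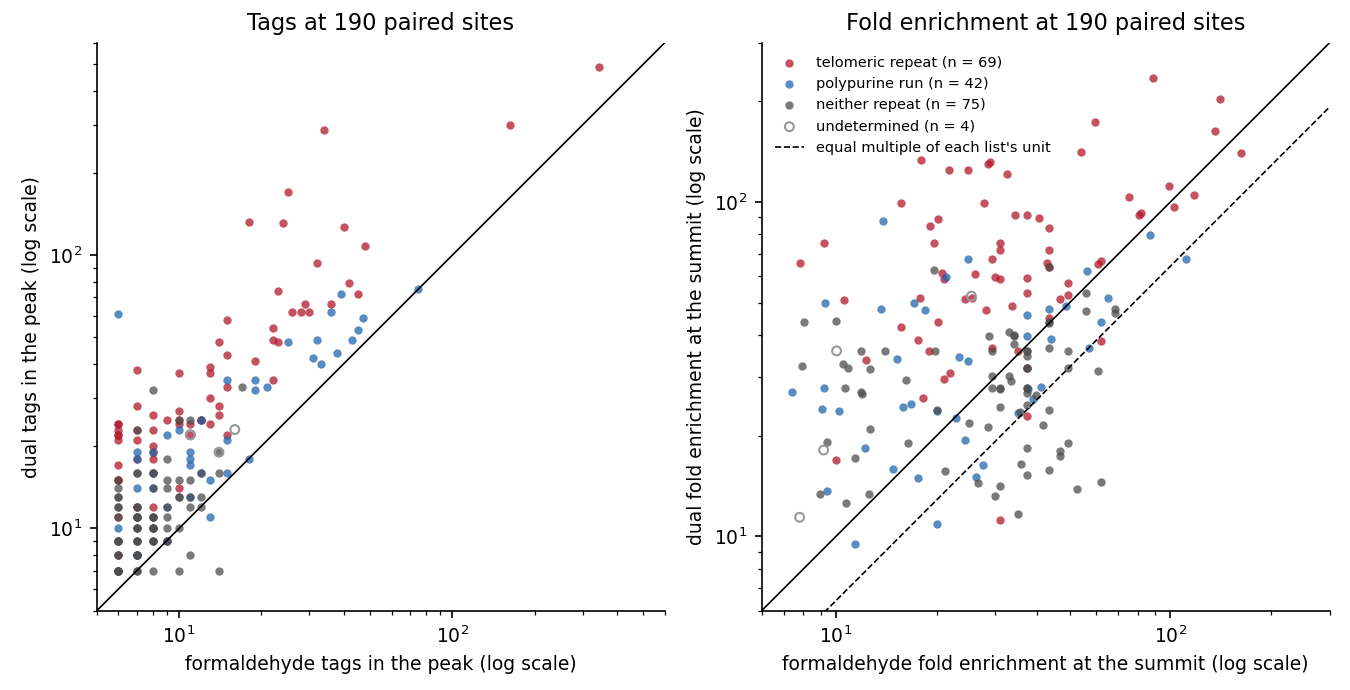
Tags (left) and fold enrichment (right) of the dual peak against those of its formaldehyde partner at the 190 pairs, on log axes, coloured by sequence class. The solid line marks equality and the dashed line equal multiples of each list's highest fold enrichment per tag; telomeric pairs lie above the solid line at 68 of 69 sites for tags and at 62 of 69 for fold enrichment.

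The class difference was also present at like formaldehyde tags. Where the formaldehyde peak held 6 to 8 tags, the dual peak held a median of 20 tags at 25 telomeric pairs, 14 at 12 polypurine pairs and 10 at 50 pairs with neither repeat. The telomeric quartiles there were 15 and 23 tags, and those with neither repeat were 8.25 and 12. No dual peak held fewer than 7 tags, so lower dual counts could not appear in this group. Where the formaldehyde peak held 9 to 12 tags, the medians were 25, 17.5 and 13 tags over 11, 10 and 21 pairs. At 13 tags or more they were 62, 41 and 17.5, with only 4 pairs in the last class.

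**Figure D2:**
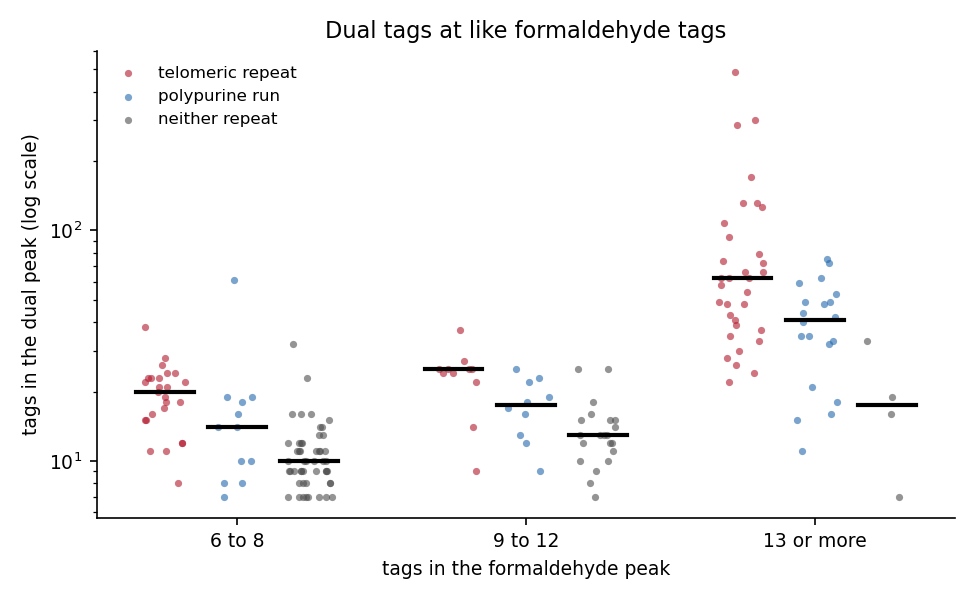
Tags in the dual peak (log axis) for pairs grouped by the tags in the formaldehyde peak and by sequence class. Points are pairs and bars are medians; in each group the median falls from the telomeric repeat (20, 25 and 62 tags) through polypurine runs (14, 17.5 and 41) to neither repeat (10, 13 and 17.5).

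Tag counts of the partners followed each other. Across pairs the Spearman correlation of dual and formaldehyde tags was 0.70 (n = 190). It was 0.86 at the telomeric repeat, 0.74 at polypurine runs and 0.40 with neither repeat, where tags spanned a narrow range (7 to 33 with dual cross-linking). Fold enrichment followed less closely, with a Spearman correlation of 0.32 over all pairs, 0.39 at the telomeric repeat and 0.13 with neither repeat. The pairs share their libraries, so these values describe the 2 lists and carry no test.

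Fold enrichment is the height at the summit divided by the local background that MACS, the authors' peak caller, estimated with the input. Over the 190 pairs its median was 35.9 with dual and 31.0 with formaldehyde cross-linking. The median ratio was 1.23 (log2 0.30, quartiles -0.23 and 1.22). The dual value was higher at 122 pairs (64.2%), at least 2 times higher at 61 (32.1%) and lower by a factor of at least 2 at 13 (6.84%). At the telomeric repeat the medians were 65.7 and 31.0, and the dual value was higher at 62 of 69 pairs (89.9%, lower Wilson 95% bound 80.5%) and at least 2 times higher at 34 (49.3%). At polypurine runs the medians were 30.7 and 23.1, and the dual value was higher at 25 of 42 pairs (59.5%, interval 44.5 to 73.0%). With neither repeat they were 27.9 and 33.4, and the dual value was higher at 31 of 75 pairs (41.3%, interval 30.9 to 52.6%). Of the 13 pairs at which the formaldehyde value was at least 2 times higher, 12 had neither repeat and 1 the telomeric repeat, and after the division by list units described next 2 such pairs were left. The median log2 ratios were 0.95, 0.14 and -0.13 in the same order.

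The direction in the class with neither repeat depended on the scale of the lists. The highest fold enrichment per tag was 6.20 in the formaldehyde list and 3.98 in the dual list. Fold enrichment was a whole multiple of this unit, within 0.0051, at 491 of 3086 formaldehyde peaks and 303 of 1531 dual peaks. MACS sets a genome-wide floor under its local background, and at such a floor every tag adds the same amount. At the floor, an equal number of tags at the summit was therefore written as a fold enrichment 1.56 times higher in the formaldehyde list (log2 0.64). Whether this difference in units comes from depth was not tested. When each fold enrichment was divided by its list's unit, the median log2 ratio became 0.94 over all pairs, 1.58 at the telomeric repeat, 0.78 at polypurine runs and 0.51 with neither repeat, and dual values were higher at 66 of 69, 37 of 42 and 58 of 75 pairs. Such a division moves every ratio by the same amount, so the difference between classes, 1.07 (log2) between the telomeric repeat and neither repeat, cannot depend on it. At the floor the divided values are summit heights in tags, not scaled for depth, so the division is another scale and not a correction. Both partners were at whole multiples at 26 pairs.

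**Figure D3:**
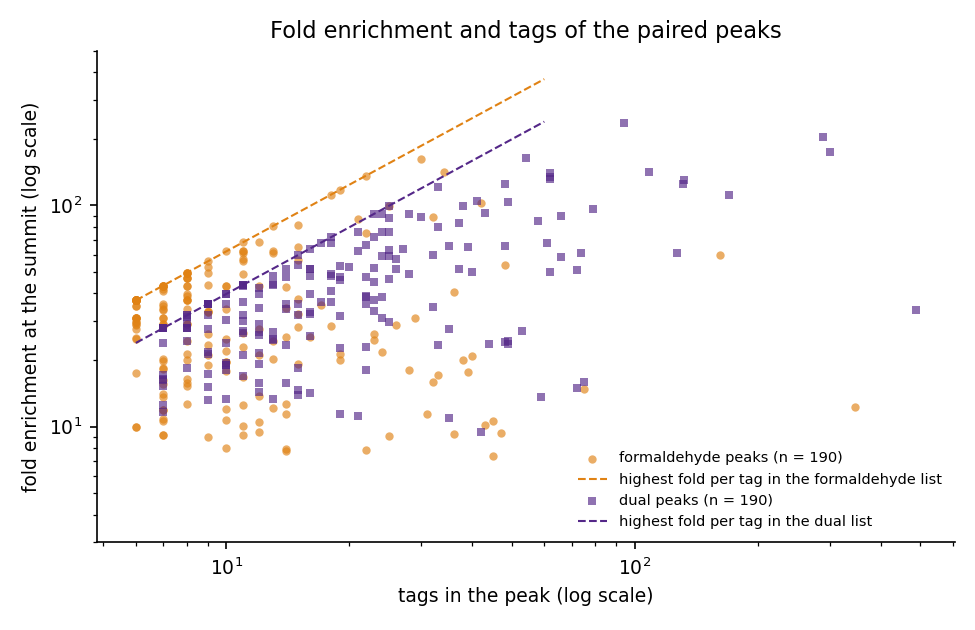
Fold enrichment against tags for the paired peaks, 190 formaldehyde (circles) and 190 dual (squares), on log axes. The dashed lines mark the highest fold enrichment per tag of each whole list, 6.20 for formaldehyde and 3.98 for dual cross-linking, and peaks of each list collect along their own line at low tag counts.

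The class order was the same for tags and fold enrichment. The plot of ratios by class shows it for each pair.

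**Figure D4:**
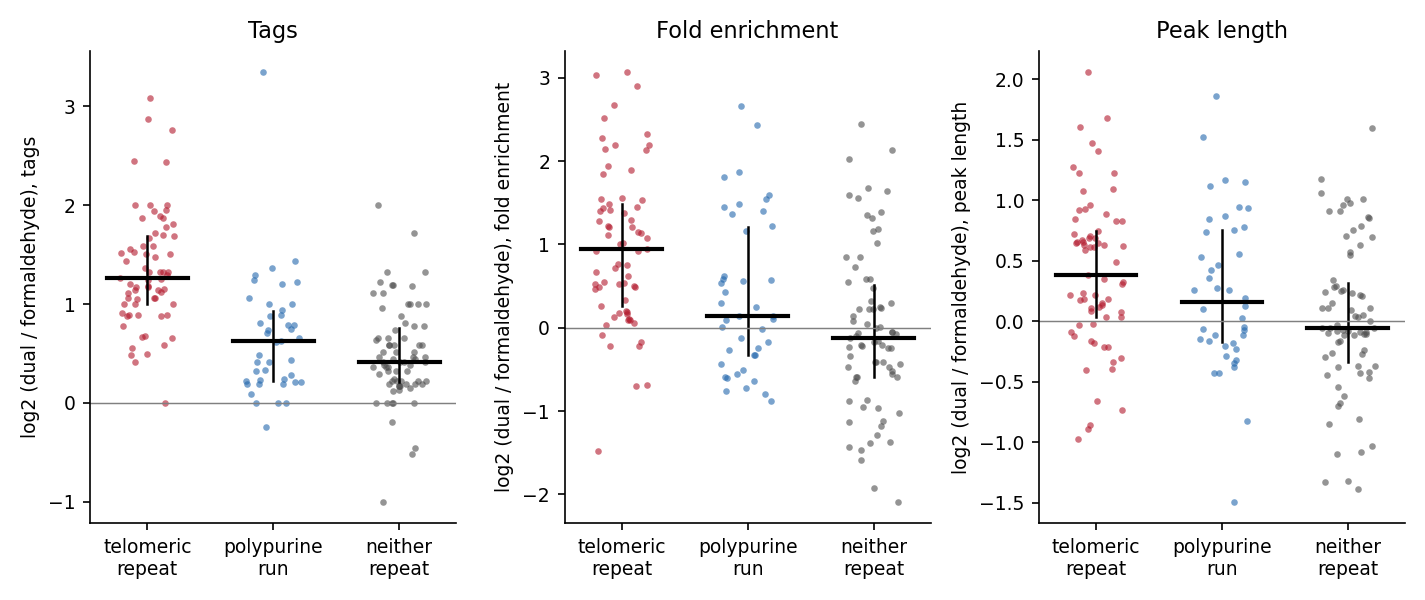
The log2 ratio of dual to formaldehyde values for tags, fold enrichment and peak length, by sequence class (69, 42 and 75 pairs). Points are pairs, thick bars medians and thin lines quartiles; the medians are 1.26, 0.62 and 0.42 for tags, 0.95, 0.14 and -0.13 for fold enrichment (1.58, 0.78 and 0.51 after division by the list units) and 0.38, 0.16 and -0.05 for length.

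The sites with the largest fold ratios were telomeric. At CFDP1, a gene for a chromatin-associated protein, the intronic peak (chr16:75368030-75368149) held 35 tags with dual and 22 with formaldehyde cross-linking, and fold enrichment was 65.7 and 7.83, a ratio of 8.39. The tag ratio at this site was far smaller than the fold ratio. In an intron of IQCJ-SCHIP1 (chr3:159412003-159412111) the counts were 21 and 7 tags and fold enrichment was 75.7 and 9.21. At CENPBD2P near the end of 19q the counts were 62 and 28 tags and fold enrichment was 134 and 17.99, but the 50 bases at the dual summit occurred 12 times in hg19. At a site 393190 bases from GATA3 (chr10:8510351-8510514) they were 38 and 7 tags, and fold enrichment was 99.6 and 15.6. In each of these the dual value was above the formaldehyde value for both measures. Formaldehyde fold enrichment at each was below the class median of 31.0, and at CFDP1 it was the lowest of the class. The formaldehyde false discovery rate (FDR, described below) was 18.1%, 18.2%, 3.85% and 24.7% in the same order. The lowest telomeric ratio was that near PARD6G (chr18:78016184-78016396), with more tags in the dual peak (21 and 6) but a lower fold enrichment (11.2 and 31.0). At chr10:135524416, chr4:8349064 and chr9:13958213 the ratios were 0.616 (summit bases present 2 times in hg19), 0.621 and 0.856, each with more tags in the dual peak, and after division by the list units the last of these turned (log2 0.42).

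Among polypurine pairs the highest ratio was at chr3:61398391-61398484, 148759 bases from PTPRG, with 25 and 12 tags and fold enrichment of 87.7 and 13.8. At chrX:145811946 the counts were 62 and 36 tags and fold enrichment was 50.04 and 9.27, but the 50 bases at the dual summit occurred 396 times in hg19. The next were at chrY:20995543 (ratio 3.66), where the summit bases occurred 826 times, and chr12:98383365 (ratio 3.52). Formaldehyde fold enrichment was below the class median of 23.1 at each of these sites. The lowest ratios were in introns of MCF2, MID2, HDAC9 and FNDC3A (0.545, 0.574, 0.592 and 0.607), and the 50 summit bases at MID2 occurred 829 times in hg19. FNDC3A held 18 tags in both lists and had the highest formaldehyde fold enrichment of the class, 112 against 67.7 with dual cross-linking. In 19 of the 42 polypurine pairs the 50 bases at the dual summit occurred more than once in hg19, against 9 of 67 readable telomeric pairs and 2 of 75 with neither repeat. The median log2 fold ratio was 0.24 at these 19 pairs and 0.14 at the other 23, and the median log2 tag ratio was 0.61 and 0.65. Only exact matches were counted in each class, so a single occurrence does not show that reads there map to a single place.

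With neither repeat, the ratio was highest near TBX15, with 13 and 10 tags and fold enrichment of 43.8 and 8.04. Next were the site in DLC1 (44.1 and 10), one near TLN2 (32.3 and 7.92) and one near ATP23 (62.6 and 19.6). Formaldehyde fold enrichment at each was below the class median of 33.4, and near TLN2 it was the lowest of the class. The formaldehyde FDR was 18.6%, 24.2%, 17.6% and 13.3% in the same order. The lowest ratio of all 190 pairs was that near SLC16A7, with 15 and 10 tags and fold enrichment of 14.6 and 62.0. It was followed by sites near AVPR1B (13.9 and 52.6), in WWTR1 (11.7 and 35.1) and near ST6GAL2 (15.8 and 43.4). All of these had more tags in the dual peak, so the direction differed between tags and fold enrichment at the lowest 4.

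Sites that the study names were mostly telomeric. They were taken from the study's own list of sites and are not an independent sample. CLIC6 (chr21:36085123-36085271), a chloride intracellular channel family gene, held 72 and 45 tags in an intron, with fold enrichment of 51.1 and 10.6. HS3ST4 (chr16:25771367), a heparan sulfate sulfotransferase gene, held 66 and 36 tags (89.4 and 40.4). GPR35, an orphan G protein-coupled receptor gene that overlaps CAPN10 in the annotation here, held 26 and 8 tags (57.3 and 49.6). The DDX11L2 site at chr2:114360585 held 66 and 29 tags (58.7 and 31.0), and PCGF3 (chr4:698890), a Polycomb ring finger gene, held 19 and 8 (53.4 and 37.2). At the chromosome 10 site at chr10:3986128 the counts were 62 and 30 tags, but fold enrichment was lower with dual (140) than with formaldehyde cross-linking (162). RASGRF1, the polypurine site in this list, also had more tags (35 and 15) and a lower fold enrichment (27.7 and 37.6) with dual cross-linking. After division by the list units both of these sites were higher with dual cross-linking (log2 0.43 and 0.20). FAM157A matched no pair within 5 kb by its GENCODE name. A site that the study places in FAM157A was nevertheless paired, at chr3:197900084-197900366, with the telomeric repeat. It held 131 tags with dual cross-linking and 24 in the nearest of its 2 formaldehyde peaks (125 and 21.8), or 49 over both.

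Of the 10 pairs at transcription regulators, dual fold enrichment was higher at 6 and lower at 4, and dual tags were higher at 9 and equal at 1, near the shares over all pairs (64.2% and 92.6%). After division by the list units the dual value was higher at 8 (86.8% of all pairs). ZNF385B, a zinc finger gene, had fold enrichment of 32.9 and 10.5 with 16 and 12 tags. PRDM10 held 12 tags in both lists (19.2 and 9.44). ZNF697 was nearly equal in fold enrichment (43.4 in both) with 11 and 8 tags, as was SP100, a component of PML nuclear bodies, with 35.9 and 37.2 and 9 and 6 tags. HEY2, a Notch target repressor, held 10 and 8 tags in a coding exon (19.1 and 16.4). CBFA2T3 (16.9 and 10) and ZNF382 (18.4 and 12.2) were higher with dual cross-linking, and HDAC9 (16.3 and 27.6) was lower. The median log2 ratio was 0.37 for both fold enrichment and tags, beside 0.30 and 0.78 over all pairs.

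At the subtelomeric duplicated genes all 6 pairs were telomeric and all had more tags and higher fold enrichment with dual cross-linking, as did most telomeric pairs (98.6% for tags and 89.9% for fold enrichment). The name describes the gene family, since the DDX11L2 pair at chr2:114360585 lies inside the chromosome, 114361 kb from an end. The list was chosen from the study's sites, and 4 of its 8 genes matched by their GENCODE names. The site at the start of chromosome 1, next to DDX11L1, held 132 tags with dual cross-linking. Its nearest formaldehyde peak held 18 tags, and its 2 formaldehyde peaks together held 61. Fold enrichment was 130 and, in the nearest formaldehyde peak, 28.4. At the start of chromosome 9, next to DDX11L5, 3 neighbouring pairs held 24 and 6, 24 and 13, and 25 and 10 tags. DDX11L10 on chromosome 16 held 18 and 7 tags (71.7 and 43.4). With the nearest formaldehyde peak as partner, the median log2 ratios were 1.10 for fold enrichment and 1.34 for tags. These genes are near copies of each other. As an exact match, the 50 bases at the dual summit occurred a single time in hg19 at 5 of the 6 pairs. They were not fully determined at the other. Near copies were not counted, so this does not show that reads there map to a single place.

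Within 100 kb of a chromosome end lay 25 pairs, 23 of them telomeric and 2 undetermined. Their median fold enrichment was 71.7 with dual and 31.0 with formaldehyde cross-linking (median log2 ratio 1.22), and the dual value was higher at 23 of the 25. At the 165 pairs farther inside the medians were 34.7 and 31.0 (log2 0.22), and the dual value was higher at 99. After division by the list units it was higher at 142 of these 165 (86.1%), and at 23 of the 25 near an end. Position and sequence overlap, so the telomeric pairs were compared by position. The 23 near an end had a median log2 fold ratio of 1.22 and the 46 farther inside one of 0.65, yet the tag ratios were 1.17 and 1.28. The order of the positions was thus opposite for tags and for fold enrichment. Formaldehyde fold enrichment was near 31 at both (31.0 and 31.7), and dual fold enrichment was 75.7 and 62.5.

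The pairs with the most tags were telomeric. The site at chr18:9990-10669 held 487 tags with dual and 345 with formaldehyde cross-linking, with fold enrichment of 33.6 and 12.3, and the 50 bases at its dual summit occurred 4 times in hg19. The site at chr12:95153-95663 held 300 and 162 tags (174 and 59.7). In BET1L, a SNARE gene, the dual peak at chr11:175321-176023 held 288 tags and the nearest of its 4 formaldehyde peaks 34, or 111 over all 4. With formaldehyde cross-linking the next highest count after the sites on chromosomes 18 and 12 was at the polypurine site chrY:9030371, with 75 tags in both lists and summit bases that occurred 820 times. High tag counts thus did not go with high fold enrichment at chr18:9990.

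Longer arrays held more tags. The longest uninterrupted array was 2 to 3 hexamers at 27 telomeric pairs, 4 to 6 at 31 and at least 7 at 11. Median dual tags were 24, 28 and 108 in this order, and median formaldehyde tags 8, 13 and 32. Median dual peak length was 99, 124 and 262 bases. The median log2 tag ratio was 1.30, 1.17 and 1.43, with no steady order, and median dual fold enrichment was 66.5, 65.7 and 63.7. Over the 69 pairs the Spearman correlation of the number of hexamers in the dual peak was 0.62 with dual tags, 0.31 with the tag ratio and 0.81 with the length of the peak. The number of hexamers and the length of the peak were not told apart.

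Peak length differed less than tags. The dual peaks had a median of 98 bases and the formaldehyde peaks one of 83.5, with a median ratio of 1.11. At the telomeric repeat the medians were 121 and 90 bases, and the formaldehyde peak lay wholly inside the dual peak at 36 of 69 pairs and the reverse held at 12. With neither repeat the medians were 68 and 67 bases, and the dual peak lay inside the formaldehyde peak at 34 of 75 pairs and the reverse held at 12. At polypurine runs the medians were 123 and 113 bases, with 15 and 10 pairs. Tags per 100 bases had medians of 26.8 and 12.8 at the telomeric repeat, 16.3 and 13.7 at polypurine runs and 14.3 and 11.4 with neither repeat.

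Summits of a pair lay close together, but the pairing rule limits their distance. A pair exists only where the midpoint of either peak lies within the other, and median lengths were 98 and 83.5 bases. Whether summits were closer than this rule alone would give was not tested. The median distance between the summits of a pair was 2 bases. At 165 of 190 pairs (86.8%) they were within 10 bases, and at 32 on the same base. The median was 3 bases at the telomeric repeat, 4 at polypurine runs and 1 with neither repeat, where 72 of 75 pairs (96.0%) were within 10 bases. At 57.3% of all formaldehyde peaks and 21.4% of all dual peaks the summit was the middle base of the peak, so for short peaks it carries little beyond the position of the peak. No pair lay between 25 and 50 bases, and 11 lay farther apart, of which 7 were telomeric. The largest distance was 294 bases, at chr1:249239879, where the dual peak held 170 tags and covered more than 1 formaldehyde peak, and where the summit bases occurred 9 times in hg19. Next were the sites in BET1L and near DDX11L1 (175 bases each) and the one at chr3:197900084 (141 bases). These 4 were all telomeric, and each matched several formaldehyde peaks, as did 5 of the 190 dual peaks in all.

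**Figure D5:**
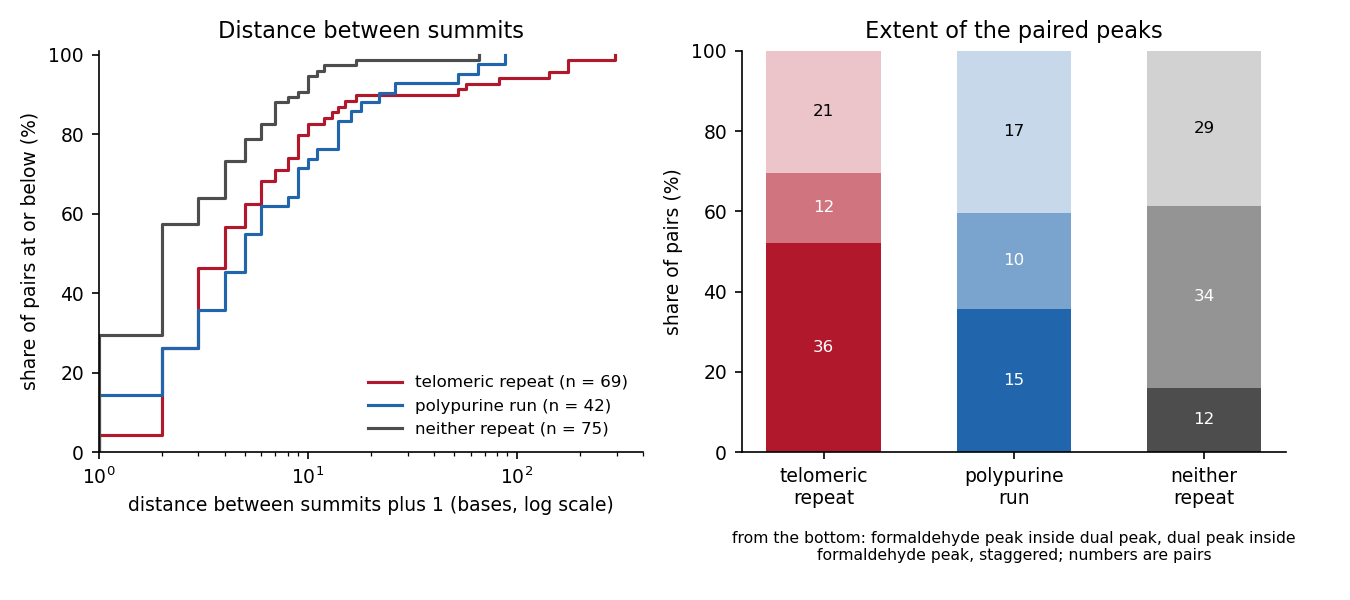
Left, the share of pairs (%) with summits at or below a given distance (bases plus 1, log axis), by sequence class; medians are 3, 4 and 1 bases for the telomeric repeat, polypurine runs and neither repeat. Right, the share of pairs (%) in which the formaldehyde peak lies inside the dual peak (36, 15 and 12 pairs), the dual peak inside the formaldehyde peak (12, 10 and 34) or the peaks are staggered (21, 17 and 29).

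Both summits lay within the span of the hexamers at all 69 telomeric pairs, and within the longest run at 31 of 42 polypurine pairs. The span runs from the first to the last hexamer over both peaks, other bases included (median 84 bases, up to 686). The polypurine run is uninterrupted, so the 2 counts are not like measures, and a summit within a wide span says little. Read along the strand that carries TTAGGG, the dual summit was downstream of the formaldehyde summit at 39 telomeric pairs, upstream at 27 and on the same base at 3, with a median shift of 1 base. Along the purine-rich strand it was downstream at 20, upstream at 16 and the same at 6, with a median of 0 bases. TTAGGG was on the plus strand at 24 telomeric pairs and on the minus strand at 45.

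The lists gave different FDR values to sites of like score. The score is the MACS p on a scale of -10 times log10, and the FDR is what MACS estimates by exchanging ChIP and input. Of the 190 dual peaks, 188 had an FDR of 5% or less (98.9%, against 68.3% of the dual list), and of their formaldehyde partners 39 did (20.5%, against 1.91% of the formaldehyde list). These 39 were 24 telomeric, 9 polypurine and 6 with neither repeat. Between scores of 95 and 105 the median FDR was 11.5% in the formaldehyde list and 1.17% in the dual list. The formaldehyde score was higher at 30 pairs, none of them telomeric, but the formaldehyde FDR was lower at only 3. The median score ratio was 2.82 at the telomeric repeat, 1.54 at polypurine runs and 1.36 with neither repeat, with dual scores higher at 69 of 69, 35 of 42 and 52 of 75 pairs. Scores end at 3100, which 3 dual peaks reached.

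Pairing itself followed the class, since a pair exists only where both lists have a peak. Of the 79 formaldehyde peaks with the telomeric repeat, 75 (94.9%) had a dual partner, as did 41 of 82 with a polypurine run (50%) and 77 of 2903 with neither (2.65%). In the other direction 69 of 162 telomeric dual peaks had a formaldehyde partner (42.6%), with 42 of 145 (29.0%) and 75 of 1216 (6.17%) in the other classes. Paired telomeric dual peaks held a median of 26 tags and unpaired ones 11.

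In HEK293T cells with dual cross-linking a peak overlapped 55 of the 190 pairs (28.9%, against 7.58% of the dual list). These were 38 of 69 telomeric (55.1%, interval 43.4 to 66.2%), 6 of 42 polypurine (14.3%, interval 6.72 to 27.8%) and 10 of 75 pairs with neither repeat (13.3%, interval 7.41 to 22.8%), and 1 undetermined. The telomeric pairs also called in HEK293T had medians of 51.5 dual and 22 formaldehyde tags, and those not called had 22 and 7. Their median log2 tag ratios were 1.23 and 1.32, and their fold ratios 1.18 and 0.76. CFDP1, CLIC6 and GPR35 were among those called, and the IQCJ-SCHIP1 site was not.

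By GENCODE annotation on hg19, 91 dual peaks of the pairs were intergenic, 88 intronic, 7 touched a non-coding exon and 4 a coding exon. No telomeric pair touched an exon. Median log2 fold ratios were 0.49 for intergenic, 0.24 for intronic and 0.10 for exonic pairs, which differ in their share of telomeric repeats (36 of 91, 33 of 88 and 0 of 11).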

How the data were processed

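UCHL1 ChIP and input DNA was sequenced as 50-base SOLiD reads, 1 library each. Mapping by the authors used Lifescope and hg19 with 2 mismatches allowed, and MACS 1.4.2 called peaks against input at p 1e-05. The handling of duplicate and multiply mapping reads is not given in the sources used here. The deposited tag count per peak was not scaled by the authors. The score was deposited without a column name and was read as -10 times log10 of the p-value from its lowest value. The fold enrichment is a ratio and the FDR a percent, both as deposited by the authors. Depth per library is unknown, so tag counts have no interval.

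The pairs, sequence classes and gene lists were chosen with earlier results of these data known. Each dual peak was set beside the matching formaldehyde peak with the nearest midpoint, and ratios are medians of dual over formaldehyde on the log2 scale. Sequences came from hg19 (GRCh37 primary assembly) and genes from GENCODE 44 lifted to hg19, within 5 kb for the gene lists. Copies of the 50 summit bases were counted as exact matches on both strands of hg19, whereas mapping allowed 2 mismatches. Named sites were the 4 highest and 4 lowest fold ratios of each class, the 3 pairs with most tags in each list, the 4 largest summit distances, the sites named by the study and 2 gene lists, and other sites were chosen after their values were seen. Some sites, sequences and a gene list are not reported here. Alternatives covered the overlap rule, thresholds, partner, scaling, repeat definition and repeated sequence. Simulated data were used to check the pairing rule, the classes and the copy counts. Python 3.11.15 was used with pandas 2.3.3, numpy 2.4.6, numba 0.67.0, scipy 1.17.1, matplotlib 3.10.9 and pysam 0.24.0.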

Additional observations from a re-analysis of the deposited data

How the results depend on the processing

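Of 77 alternative values over 10 results, 56 lay within the 95% interval of the median over pairs, or within 1.5 times the count, and none changed the sign of a median whose interval excluded 0. With both lists filtered before pairing, so that partners could change, an FDR of 5% or less left 40 pairs and a score of at least 100 left 87. At the 40 pairs the median log2 tag ratio was 1.00, the length ratio 0.55 and the summit distance 3.5 bases. The tag ratio was 0.14 after division by the list sums and 0.60 per base. With the score in place of fold enrichment the log2 ratios were 0.84 over all pairs, 1.50 at the telomeric repeat, 0.62 at polypurine runs, 0.45 with neither repeat, 1.52 within 100 kb of an end and 0.72 farther inside. With fold enrichment divided by the list units, an alternative chosen after seeing the data, they were 0.94, 1.58, 0.78, 0.51, 1.86 and 0.86 in the same order. With 4 consecutive hexamers required, 102 pairs had neither repeat and a log2 fold ratio of 0.12 in place of -0.13, since shorter arrays then fall in that class. Among telomeric pairs alone the ratio farther than 100 kb from an end was 0.65. No paired analysis was possible because each condition has 1 ChIP library and the result comes from no test. The unknown depth limits every tag ratio and every fold ratio divided by the list units. A factor common to a library cancels in the differences between classes.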

Other observations

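Letters that can form a G-quadruplex (4 runs of at least 3 G, or C, with 1 to 7 bases between them) were present in 90 of the 190 dual peaks of the pairs (47.4%), against 15.5% of the whole dual list and 3.99% of the formaldehyde list. They were in 59 of 69 telomeric pairs, 29 of 42 polypurine pairs and 2 of 75 pairs with neither repeat. The median log2 tag ratio was 1.26 at telomeric pairs with them and 1.27 at the 10 without, and 0.63 and 0.61 at polypurine pairs with them and at the 13 without. The median log2 fold ratio was 1.02 with them and 0.38 without at telomeric pairs, and 0.10 with them and 0.57 without at polypurine pairs, so it differed in opposite directions, and neither difference was tested. A match is a description of the letters and was not tested for structure. At telomeric pairs it partly follows from the class, since at least 4 consecutive hexamers, held by 42 of these pairs, meet the definition by themselves.

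The pairs with neither repeat were mostly unlike each other in sequence. At least 16 identical bases were shared with another pair by 15 of the 75, and with another pair of this class by 13. All 69 telomeric and all 42 polypurine pairs shared such a stretch. Those classes are defined by a kind of sequence, so they are no independent comparison. An intergenic cluster on chromosome 2 (chr2:117835216 and chr2:117835463) shared 41 bases, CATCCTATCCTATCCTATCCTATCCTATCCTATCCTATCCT. The pairs in CHRDL2 and MYH10, genes on different chromosomes, shared 23 bases, TCTTCTCTTCTCCAGGCTGAACA. The olfactory receptor pairs OR4C1P and OR6C3 shared 17 bases, GCCATCTGCAAGCCCCT.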
